A study of Homo sapiens with 6 samples.

Results

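The 10 genes described here encode enzymes that modify and cross-link collagen: the prolyl 4-hydroxylase alpha subunits P4ha1, P4ha2 and P4ha3, the lysyl hydroxylases Plod1, Plod2 and Plod3, and the lysyl oxidases Lox, Loxl1, Loxl2 and Loxl3. They were chosen by symbol from a table of 22989 genes, which held all 10, and all 10 were among the 13497 genes that had enough counts to be tested. RNA-seq was performed to ask how the long noncoding RNA LINC00115 acts in breast cancer stem-like cells (BCSC), with 3 libraries labelled LINC00115 KD (knockdown) and 3 labelled WT, called control here. All 6 libraries carry the label MDA-MB-231 PTX-resistant BCSC, that is, cells of a human triple-negative breast cancer line made resistant to paclitaxel and sorted for aldehyde dehydrogenase activity. The KD cells expressed a short hairpin RNA against LINC00115, and the controls are wild type in the labels. The study's text names a control shRNA for its knockdown experiments, but does not say which control these libraries came from. Nothing in the labels says whether the libraries of a group came from separate cultures, so the p-values measure only the spread between these libraries.

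Each library held between 36979221 and 38799331 counts. Pairs of libraries of the same group had a chi-square of 3.88 to 7.60 for each degree of freedom, above the 1 of pure sampling noise. The gene names go against the label of human cells. Of the 22989 names, 5777 end in Rik or are Gm followed by a number and 30 begin with H2-, names of mouse genes, and 0 begin with HLA, the human counterpart of H2. H2-D1, a mouse class I histocompatibility gene, had 21534, 20907 and 21671 counts in the controls and 37141, 33683 and 36725 in the KD libraries. The counts were thus listed for a mouse gene set, and whether they are those of the labelled MDA-MB-231 cells cannot be told from the files. Every difference below is between libraries so labelled. LINC00115 is not among the names, so the knockdown could not be checked either. Of 8 markers of a mesenchymal breast cancer line, 4 were higher in every KD library (Vim, Axl, Cav1 and Twist1) and 2 lower (Fn1 and S100a4). Vim and Cd44 were abundant (3418 and 911 normalized CPM, counts scaled by the library total, in the controls) and Zeb1 was low (0.751). Fn1 went from 2648 to 1945 CPM and S100a4 from 785 to 341. Of 10 luminal and epithelial markers, 5 were higher in every KD library and 2 lower. Krt8 and Krt18, keratins of simple epithelia, were the most abundant, at 472 and 129 CPM in the controls and 752 and 236 in the KD libraries. Gata3, 1 of the 2 lower, went from 95.8 to 53.2 CPM, and the other, Krt19, had at most 7 counts in any library. Epcam and Pgr had at most 5 counts in any library. The KD libraries also held RNA of genes of other tissues. The summed level of 10 lung epithelium markers was 1.73 to 2.04 CPM in the controls and 73.6 to 84.3 CPM in the KD libraries, and all 10 were higher in every KD library. For 10 kidney epithelium markers the sums were 16.7 to 19.5 and 44.8 to 48.3 CPM, with 8 higher in every KD library and 1, Cubn, lower. Cubn and Aqp1 made up most of the sum in the controls (8.28 and 8.21 CPM). Kap, Umod, Acsm2 and Slc22a6 had 0 counts in every control. In bulk RNA, fewer cells of a type and less RNA per cell cannot be told apart.

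Collagen chains are modified in the endoplasmic reticulum before they fold. Prolyl 4-hydroxylases convert proline to 4-hydroxyproline, which holds the triple helix together at body temperature, and lysyl hydroxylases (PLOD) convert lysine to hydroxylysine. Both need oxygen, iron, 2-oxoglutarate and ascorbate. Outside the cell, the copper-dependent lysyl oxidases (LOX) oxidize lysine and hydroxylysine, which starts the covalent cross-links of collagen and elastin. P4HA1, P4HA2, PLOD2 and LOX are known targets of hypoxia-inducible factor 1 (HIF1), and stiff, cross-linked collagen is a feature of breast tumours that spread.

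HIF1 binds DNA at a short core of the letters ACGTG or GCGTG. To show where these letters lie in genes that changed in opposite directions, or hardly changed, the 250 bases before the transcription start are printed for 5 of the genes, in the human form because the labels name human cells, from RefSeq on GRCh38.p14, 5′ to 3′ on the strand of the gene, with the core in capitals. A core on the other strand reads CACGT or CACGC. The windows are chr10:73096867-73097116 (P4HA1), chr5:132227092-132227341 (P4HA2), chr3:146161185-146161434 (PLOD2), chr7:101217582-101217831 (PLOD3) and chr5:122078260-122078509 (LOX, the farthest upstream of its 3 listed starts), all on the minus strand.
P4HA1: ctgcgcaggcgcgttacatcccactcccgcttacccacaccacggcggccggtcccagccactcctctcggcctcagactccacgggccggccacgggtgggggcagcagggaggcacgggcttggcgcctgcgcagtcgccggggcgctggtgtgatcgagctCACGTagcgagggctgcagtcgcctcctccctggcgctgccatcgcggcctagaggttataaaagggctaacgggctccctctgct
P4HA2: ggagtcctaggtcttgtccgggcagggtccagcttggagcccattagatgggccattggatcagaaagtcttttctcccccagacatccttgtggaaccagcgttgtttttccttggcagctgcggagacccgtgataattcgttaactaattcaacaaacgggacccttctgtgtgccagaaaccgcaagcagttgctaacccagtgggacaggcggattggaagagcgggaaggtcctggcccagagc
PLOD2: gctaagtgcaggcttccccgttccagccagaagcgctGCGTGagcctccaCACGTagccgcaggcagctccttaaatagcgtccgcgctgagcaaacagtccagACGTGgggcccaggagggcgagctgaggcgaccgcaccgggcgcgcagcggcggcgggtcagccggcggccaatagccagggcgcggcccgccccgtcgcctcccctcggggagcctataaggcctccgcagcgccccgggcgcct
PLOD3: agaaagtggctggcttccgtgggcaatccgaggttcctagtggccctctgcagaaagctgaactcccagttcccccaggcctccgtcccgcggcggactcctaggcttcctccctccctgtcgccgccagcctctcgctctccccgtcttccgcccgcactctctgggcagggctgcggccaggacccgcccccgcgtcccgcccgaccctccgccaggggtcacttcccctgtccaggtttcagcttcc
LOX: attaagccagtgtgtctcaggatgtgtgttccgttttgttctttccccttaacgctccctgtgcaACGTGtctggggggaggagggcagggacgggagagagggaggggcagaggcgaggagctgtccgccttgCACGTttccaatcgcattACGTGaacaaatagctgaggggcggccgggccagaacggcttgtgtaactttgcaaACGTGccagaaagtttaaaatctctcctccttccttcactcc
Windows of 8 of the 10 genes were counted, and 5 of the 8 had at least 1 core in a window. P4HA3 and LOXL2 were not part of this count, so nothing is said here about cores before them. Counted by window, 7 of 11 held one, 3 of them from LOX, whose other 2 windows overlap each other. Of all 35116 windows of this length in the table, 43.2% did. The PLOD2 window held 3 cores and the P4HA1 window 1, and the windows of P4HA2 and PLOD3 held 0. The LOX window printed held 4 cores, and the PLOD1 window, not printed, held 2. These are matches of letters in the human genes, and binding was not measured.

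All 10 genes differed between the groups at an adjusted p-value under 0.05 (edgeR's quasi-likelihood test, adjusted by Benjamini-Hochberg over all 13497 genes), 5 lower and 5 higher in the KD libraries. Of all genes tested, 36.7% were lower and 36.7% higher by this measure, 73.4% in all, so most genes differed and this count alone sets the members little apart. With a fold change over 2 as well, the thresholds of the study, 5 members were lower and 2 higher, against 9.98% and 10.2% of all genes, or 20.2% in either direction. The 5 lower members were P4ha1, P4ha2, P4ha3, Plod2 and Loxl2, and the 2 higher were Lox and Loxl1. No member had overlapping groups, which was so for 75.6% of all genes tested. The median log2 fold change (KD over control) of the 10 members was −0.46, and that of all genes tested −0.0061. Lox had fewer than 10 counts in every control library and passed the filter on low counts only through the KD libraries.

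**Figure D1:**
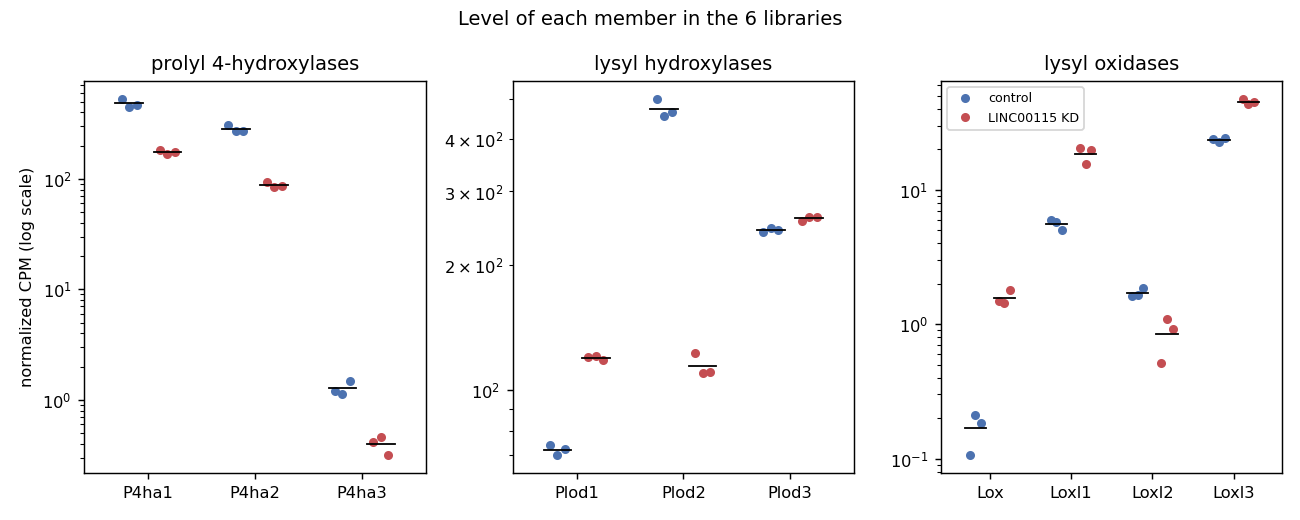
Normalized CPM (log axis) of each member in the 3 control libraries (blue) and the 3 LINC00115 KD libraries (red), in a panel for each enzyme class, with black lines for the group means. The 3 prolyl 4-hydroxylases and Plod2 lie lower in every KD library, and Lox, Loxl1 and Loxl3 lie higher.

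All 3 prolyl 4-hydroxylase alpha subunits fell in the KD libraries, by similar factors. P4ha1, the catalytic subunit of the main enzyme of most tissues, had 19948, 16938 and 17629 counts in the controls and 7108, 6136 and 6631 in the KD libraries. The lowest control library held more than 2 times the counts of the highest KD library. Its level was 482 ± 42.4 normalized CPM in the controls and 175 ± 8.33 in the KD libraries (SD, n = 3 each), which gives a log2 fold change of −1.46 ± 0.044 (SE; adjusted p = 3.42e-25, edgeR's quasi-likelihood test), that is, 2.75-fold lower.

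P4ha2, the alternative catalytic subunit, had 11687, 10193 and 10216 counts in the controls and 3583, 3093 and 3251 in the KD libraries. As for P4ha1, control replicate 1 was the highest library and the groups lay far apart. The mean fell from 284 ± 23.1 to 87.5 ± 4.50 normalized CPM, which gives a log2 fold change of −1.70 ± 0.047 (SE; adjusted p = 1.98e-26, edgeR). P4ha3, the remaining alpha subunit, was barely detected, with 45, 43 and 56 counts in the controls and 16, 17 and 12 in the KD libraries. These few counts gave a log2 fold change of −1.67 with a standard error of 0.44 (adjusted p = 0.00106, edgeR). Per kilobase of human coding sequence, used here in place of the lengths of the genes counted, the order in the controls was P4ha1 (301 ± 26.5 CPM per kilobase), P4ha2 (177 ± 14.5) and P4ha3 (0.779 ± 0.113), and neighbours in this order differed by more than their spread. The order was the same in the KD libraries.

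The summed level of the 3 subunits was 766 ± 65.2 CPM in the controls and 263 ± 12.7 in the KD libraries, 2.91-fold lower. An exact permutation test of 3 libraries against 3, two-sided, gave p = 0.1, the smallest that this design allows. P4ha1 made up 62.8% ± 0.443 of the prolyl 4-hydroxylase counts in the controls and 66.6% ± 0.373 in the KD libraries, so P4ha2 fell a little more than P4ha1. The log2 ratio of P4ha1 to P4ha2 rose by 0.24 ± 0.021 (standard error) and its groups did not overlap. Against P4ha3, the ratios of P4ha1 and of P4ha2 overlapped between the groups (differences 0.20 ± 0.22 and −0.041 ± 0.22), so no unequal change was detectable there at this depth.

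The lysyl hydroxylases went in different directions. Plod2, which hydroxylates lysines in the telopeptides of collagen, the sites of the most stable cross-links, had 18860, 17230 and 17545 counts in the controls and 4740, 4041 and 4194 in the KD libraries. It fell the most of all 10 members by a factor, from 474 ± 23.6 to 114 ± 7.10 normalized CPM, which gives a log2 fold change of −2.05 ± 0.041 (SE; adjusted p = 2.10e-30, edgeR). This is a 4.14-fold decrease, and Plod2 ranked 363 from the lowest log2 fold change of all genes tested.

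Plod1, which hydroxylates lysines of the helix, had 2786, 2637 and 2732 counts in the controls and 4643, 4444 and 4480 in the KD libraries. It rose from 72.03 ± 2.06 to 120 ± 1.58 normalized CPM, which gives a log2 fold change of 0.73 ± 0.044 (SE; adjusted p = 1.10e-16, edgeR), which is 1.66-fold and under the threshold of 2. Plod3, which also adds sugars to hydroxylysine, had 9018, 9281 and 9169 counts in the controls and 9872, 9552 and 9895 in the KD libraries. The groups did not overlap, but the difference was 1.07-fold, which gives a log2 fold change of 0.092 ± 0.034 (SE; adjusted p = 0.0159, edgeR). With upper quartile scaling the value was 0.051 and no longer passed (adjusted p = 0.168, edgeR).

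**Figure D2:**
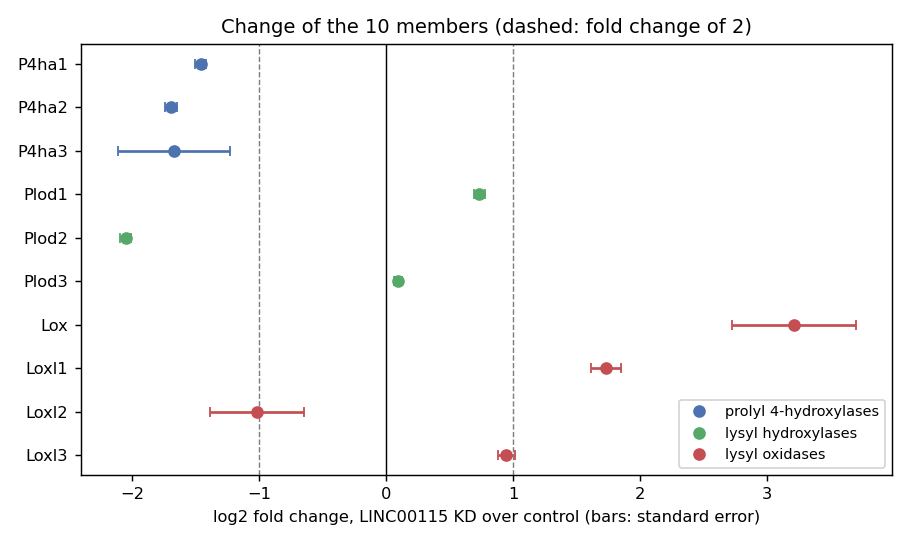
Log2 fold change of LINC00115 KD over control for the 10 members, as points with the standard error as bars, coloured by enzyme class, with dashed lines at a fold change of 2. Plod2 at −2.05 lies lowest and Lox at 3.21 highest, and Lox, P4ha3 and Loxl2, the members with the fewest counts, have the widest bars.

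The 3 lysyl hydroxylases together had 788 ± 22.4 CPM in the controls and 493 ± 4.60 in the KD libraries, 1.60-fold lower (exact permutation p = 0.1, two-sided, the smallest possible). The make-up of the class changed more than its sum. Plod2 held 60.1% ± 1.27 of the counts in the controls and 23.2% ± 1.23 in the KD libraries, while Plod3 went from 30.8% ± 1.25 to 52.5% ± 1.08 and Plod1 from 9.14% ± 0.124 to 24.3% ± 0.299. Per kilobase of human coding sequence, Plod2 stood first in the controls at 208 ± 10.4, ahead of Plod3 at 110 ± 1.46 and Plod1 at 33.0 ± 0.946 CPM per kilobase. In the KD libraries Plod3 came first at 117 ± 1.34, and Plod1 (54.9 ± 0.724) and Plod2 (50.3 ± 3.12) were close to each other. The log2 ratio of Plod1 to Plod2 was −2.72 ± 0.039 in the controls and 0.067 ± 0.087 in the KD libraries (SD, n = 3 each).

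**Figure D3:**
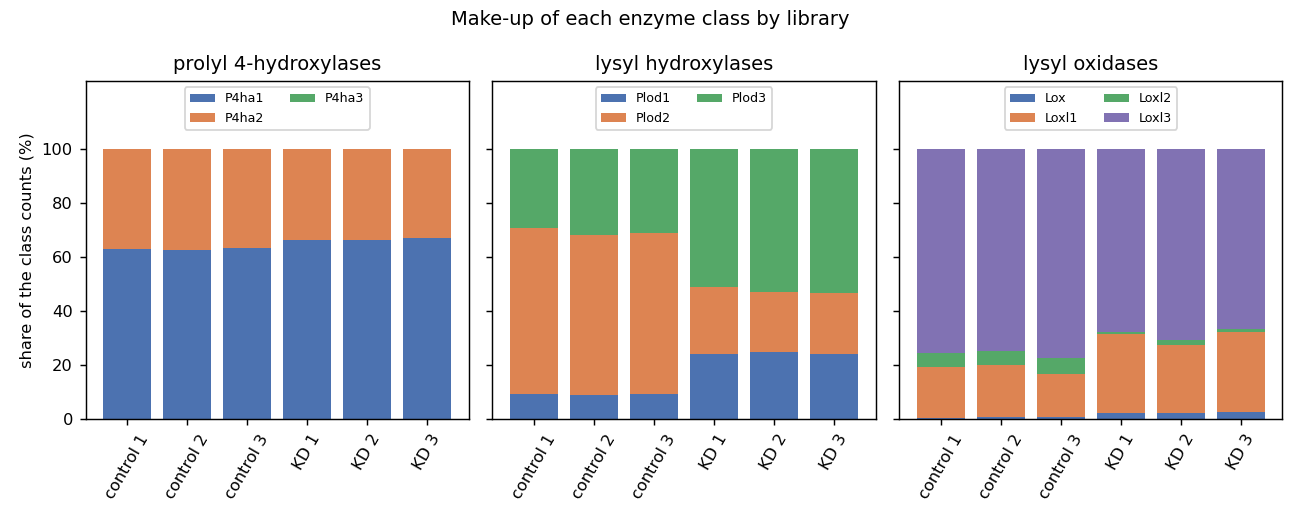
Share of the counts of each enzyme class that each member took (percent, stacked bars to 100) in the 3 control and the 3 KD libraries. In the lysyl hydroxylase panel the Plod2 share is 60.1% on average in the controls and 23.2% in the KD libraries, while in the prolyl 4-hydroxylase panel the P4ha1 share moves only from 62.8% to 66.6%.

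Among the lysyl oxidases, Lox, Loxl1 and Loxl3 rose and Loxl2 fell. Lox, the founding member of the family, had 4, 8 and 7 counts in the controls and 58, 53 and 68 in the KD libraries. Every KD library thus stood well above every control library, but on few counts. The level went from 0.168 ± 0.055 to 1.58 ± 0.186 normalized CPM, which gives a log2 fold change of 3.21 ± 0.49 (SE; adjusted p = 4.32e-07, edgeR), or 9.24-fold. P4ha1, P4ha2 and Plod2, known like Lox as HIF1 targets, fell in the same libraries.

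Loxl1, which cross-links elastin, had 223, 218 and 190 counts in the controls and 789, 567 and 751 in the KD libraries. It rose from 5.57 ± 0.478 to 18.5 ± 2.70 normalized CPM, which gives a log2 fold change of 1.73 ± 0.12 (SE; adjusted p = 3.66e-15, edgeR), or 3.33-fold. KD replicate 2 was the lowest of the KD libraries and still more than 2 times above the highest control.

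Loxl3, which takes part in the cross-linking of cartilage collagen, had 895, 852 and 914 counts in the controls and 1839, 1597 and 1704 in the KD libraries. Its log2 fold change was 0.95 ± 0.066 (SE; adjusted p = 6.12e-15, edgeR), a 1.93-fold rise just under the threshold. Loxl2, which is linked to invasion in breast cancer, had 61, 62 and 70 counts in the controls and 20, 40 and 35 in the KD libraries. Its log2 fold change of −1.02 ± 0.37 (SE; adjusted p = 0.0139, edgeR) was past the fold threshold by a small margin. Without KD replicate 1, the lowest library, it was −0.75 (adjusted p = 0.0845, edgeR) and without control replicate 3, the highest, −0.95 (adjusted p = 0.0532, edgeR), so this call rests on these libraries.

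Together the 4 lysyl oxidases had 31.0 ± 0.657 CPM in the controls and 66.3 ± 4.34 in the KD libraries, 2.14-fold higher (exact permutation p = 0.1, two-sided, the smallest possible). Loxl3 took 75.9% ± 1.35 of these counts in the controls and 68.4% ± 2.11 in the KD libraries, Loxl1 18.02% ± 1.68 and 27.9% ± 2.39, Lox 0.544% ± 0.187 and 2.38% ± 0.259, and Loxl2 5.51% ± 0.390 and 1.29% ± 0.521. Per kilobase of human coding sequence, the order in the controls was Loxl3 (10.4 ± 0.371 CPM per kilobase), Loxl1 (3.24 ± 0.278), Loxl2 (0.734 ± 0.055) and Lox (0.134 ± 0.044). In the KD libraries Lox (1.26 ± 0.149) stood above Loxl2 (0.363 ± 0.127), and Loxl3 and Loxl1 kept their places. Loxl4, the other member of the gene family, which is not among the 10, had more CPM than these 4 together, 211 ± 6.60 in the controls and 229 ± 1.46 in the KD libraries, which gives a log2 fold change of 0.12 ± 0.036 (SE; adjusted p = 0.00418, edgeR). The sum over the 4 is therefore not that of all lysyl oxidases.

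Markers of fibroblasts, endothelial cells and leukocytes were looked at beside the rise of Lox and Loxl1. The summed level of 12 fibroblast markers was 175 to 194 CPM in the controls and 77.5 to 80.9 CPM in the KD libraries, most of it from Pdgfra. Of the 12, 2 were higher in every KD library (Postn, with 0 counts in the controls and 9 to 11 in the KD libraries, and Acta2), 3 were lower, and Lum and Thy1 had at most 2 counts in any library. The sum of 10 endothelial markers was 10.6 to 12.5 and 66.1 to 67.6 CPM, of which Cdh5 alone made up 57.8 CPM in the KD libraries. Of these 10, 3 were higher in every KD library (Cdh5, Cldn5 and Kdr, the latter pair with at most 18 counts) and 3 lower (Tie1, Egfl7 and Plvap), and the groups overlapped for Pecam1. The sum of the 13 listed leukocyte markers found was 49.1 to 54.1 and 151 to 163 CPM, mostly S100a8 and Cd14. Of these 13, 5 were higher in every KD library (S100a8, Cd14, S100a9, Lyz2 and Cd74) and 1, Csf1r, lower, on at most 3 counts in any library. The groups overlapped for Ptprc, and Cd3e was at 0 throughout. The part of RNA from other tissues, lung and kidney included, in the rise of Lox and Loxl1 was not tested.

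The log2 ratio within a class was compared between the groups for 12 pairs of members. In 10 of the 12 pairs the groups did not overlap. The levels of single genes did not overlap for 75.6% of all genes tested, and the pairs share members, so they are not independent. The exact permutation p was 0.1 for each of these 10, the smallest possible for 3 against 3, and 0.12 after adjustment over the 12 pairs. The largest shift was that of Lox over Loxl2, from −3.29 ± 0.450 to 0.95 ± 0.556 (SD, n = 3 each). Next came Loxl1 over Loxl2 with a shift of 2.79 ± 0.44 (standard error) and Plod1 over Plod2 with 2.78 ± 0.055. The size of the Lox shift is uncertain, because Lox had 4, 8 and 7 counts in the controls and passed the filter only through the KD libraries. With 2 counts added in place of 0.5, the shift of Lox over Loxl2 was 3.94 where it had been 4.25. Since both members of a pair are read in the same library, these ratios do not depend on how libraries are scaled.

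The rest of the pathway was described with 9 gene lists of 103 genes outside the 10, of which 76 were tested. At an adjusted p under 0.05, 49 were lower and 15 higher in the KD libraries, and 12 did not pass (edgeR's quasi-likelihood test). With a fold change over 2, 17 were lower and 4 higher. Of all genes tested, 36.7% were lower and 36.7% higher at this adjusted p, and 9.98% and 10.2% with the fold change as well. The counts of the single lists below are to be read against these shares. The lists, that of the HIF1 targets included, were chosen with earlier results of these data known. The median log2 fold change of the 76 was −0.38. Of the 17 lower genes, 13 were HIF1 targets that do not modify collagen.

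The partner of the prolyl 4-hydroxylases fell with them. P4hb, protein disulfide isomerase, which forms the enzyme together with an alpha subunit and keeps it soluble, went from 1867 ± 71.5 to 770.5 ± 14.3 normalized CPM, which gives a log2 fold change of −1.28 ± 0.031 (SE; adjusted p = 3.92e-28, edgeR). Colgalt1, which adds galactose to hydroxylysine, had 201 ± 3.94 and 208 ± 7.48 CPM (adjusted p = 0.258, edgeR). Colgalt2 and Fkbp10 had too few counts to be tested. Of the prolyl 3-hydroxylases and their complex, 4 of 5 genes tested were lower and 0 higher, none by a fold change of 2. P3h3 was 1.77-fold lower and Ppib, cyclophilin B, 1.39-fold lower.

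Of 14 folding and export genes tested, 8 were lower and 4 higher. Fkbp14, a prolyl isomerase that helps collagen to fold, fell 2.70-fold, from 7.54 ± 0.900 to 2.80 ± 0.065 CPM, and Fkbp7, a relative, 1.76-fold. Serpinh1, the collagen chaperone HSP47, differed little, with 795 ± 34.98 and 705 ± 3.36 CPM (log2 fold change −0.17). Mia2, an export factor, rose 1.94-fold and Sec23a, a coat protein of transport vesicles, 1.22-fold. Among the 4 procollagen proteinases and enhancers tested, Bmp1, which removes the C-propeptide of procollagen and also activates Lox, was 1.79-fold lower, and Pcolce2 1.49-fold lower. Pcolce, another enhancer of this cleavage, was 1.20-fold higher. Of 6 genes of the list with Loxl4 and copper supply, 5 were lower and 1, Loxl4, higher. The copper importer Slc31a1 was 1.69-fold lower, and the copper pump Atp7a, which loads secreted copper enzymes, 1.32-fold lower.

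**Figure D4:**
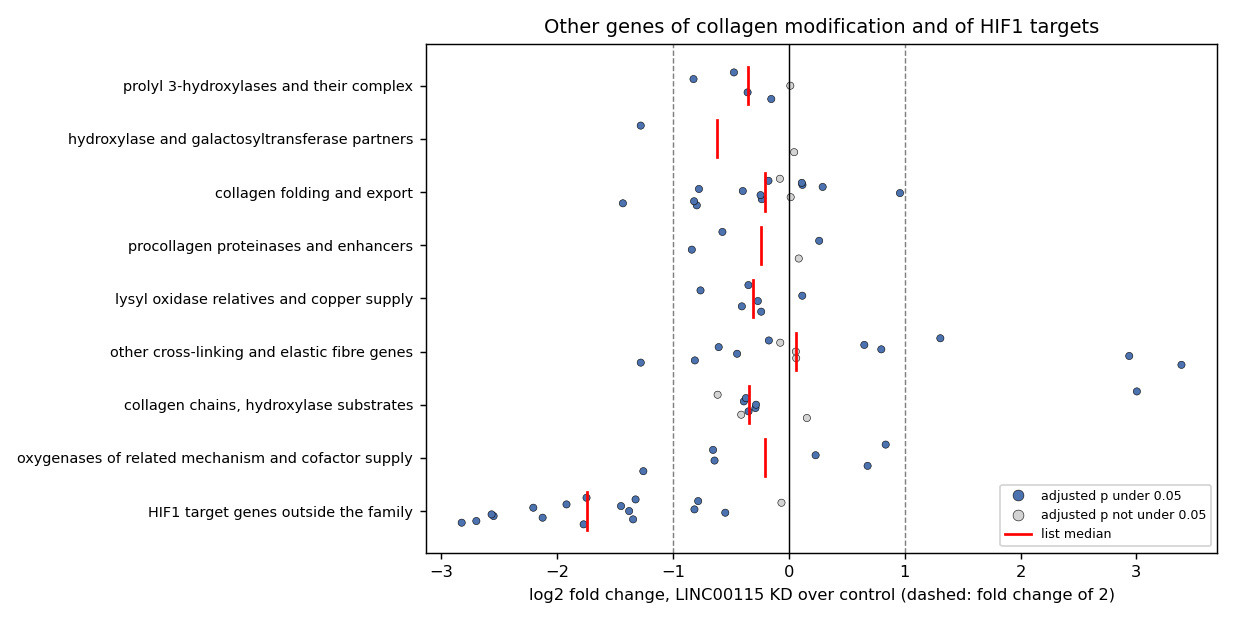
Log2 fold change of LINC00115 KD over control for each gene tested in the 9 lists, in blue where the adjusted p was under 0.05 and in grey where it was not, with a red line at the median of each list. The HIF1 targets have a median of −1.74, while the medians of the other lists lie between −0.62 and 0.061.

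Collagen chains are the substrates of the hydroxylases. Of 9 collagen chains tested, 5 were lower and 1 higher at an adjusted p under 0.05, and only Col6a3 passed a fold change of 2 (edgeR). Col4a1, a basement membrane chain and the most abundant of them by CPM, went from 1336 ± 36.3 to 1051 ± 15.8. Col5a3 was 1.31-fold and Col6a1 1.29-fold lower, and Col6a3 rose from 0.583 ± 0.236 to 4.70 ± 0.263 CPM. Col1a1 had at most 0.389 CPM as a group mean, so the main fibrillar collagen was nearly absent. Of 13 cross-linking and elastic fibre genes tested, 5 were lower and 5 higher. Tgm2, a transglutaminase that cross-links matrix proteins by another chemistry, rose from 142 ± 2.60 to 351 ± 4.28 CPM, and Fbn1, fibrillin 1, from 0.610 ± 0.254 to 4.69 ± 0.017. Dcn, decorin, was 2.42-fold and Efemp2, fibulin 4, 1.75-fold lower.

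The HIF hydroxylases use the same chemistry as the collagen hydroxylases. Egln1, the main prolyl hydroxylase of HIF, was 2.39-fold lower and Jmjd6, another oxygenase, 1.57-fold lower, while Egln2 was 1.60-fold higher and the ascorbate transporter Slc23a2 1.79-fold higher. Of 17 other HIF1 targets tested, 16 were lower and 0 higher, with 13 past a fold change of 2 and a median log2 fold change of −1.74. The largest decreases were those of Aldoc (7.07-fold) and Ankrd37 (6.48-fold).

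To see which genes had the pattern of the most abundant member of each class, the log2 normalized CPM of each gene was centred over the 6 libraries and compared by the root mean square difference. The nearest to P4ha1 were Ndrg1 (difference 0.019 on the log2 scale), Ero1a (0.030) and Ubash3b (0.040), with log2 fold changes of −1.45, −1.43 and −1.55. The nearest to Plod2 were Higd1a (0.054), Cdkn1a (0.057) and Bnip3 (0.061). For Loxl3 they were Nbl1 (0.027), Bahcc1 (0.035) and Gtf2ird2 (0.036). With 2 groups of libraries, this measure is set mainly by the difference between the groups.

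In the human annotation of GRCh37, 6 of the 10 genes overlap another protein-coding gene: P4ha2, P4ha3, Plod3, Lox, Loxl2 and Loxl3. Overlaps in the gene set that was counted were not analysed here, and the use of strand in counting is not given in the sources used here.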

How the data were processed

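RNA-seq libraries of 3 LINC00115 KD and 3 control (WT) samples were used. The authors trimmed adapters and mapped reads with HISAT2, to hg19 in the study's methods and to hg38 in the submitters' processing notes, which also name featureCounts and DESeq2. They deposited whole-number read counts for each of 22989 genes, without normalization. Both builds are human, while the gene names of the table are those of mouse. The annotation and strand setting are not given in the sources used here. Columns of values not used number 0.

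The test was that of edgeR 4.0.16 in R 4.3.3, with these steps: filterByExpr (minimum count 10, minimum total count 15), TMM normalization and the quasi-likelihood test with the group only, with Benjamini-Hochberg adjustment over 13497 genes. Genes were called past both 0.05 (adjusted p) and a fold of 2. SE was taken as the absolute log2 fold change over the root of the F statistic. Normalized CPM use TMM-scaled library totals. At 3 counts or fewer a value is near the limit of detection, for counting error only. Class sums and log2 ratios (0.5 counts added) were compared by exact permutation tests. Coding lengths are those of the canonical transcripts of GENCODE on GRCh37, matched by symbol without regard to case. The random seed was 11.

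The members and the 16 gene lists, 9 of pathway genes and 7 of markers, were chosen with earlier results of these data known. Named list genes are up to 2 each way with the largest change among those with an adjusted p under 0.05, 100 or more counts in all libraries of the group that was higher, and groups that did not overlap; Loxl4, Colgalt1, Colgalt2, Fkbp10, Serpinh1, Col4a1, Col1a1 and the markers named were chosen with their values seen. For the member with the highest mean CPM in each class, the 3 nearest genes are named.

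Alternatives were other scalings (upper quartile, library totals, the size factors of DESeq2), other low-count filters, each replicate left out, a block for the replicate number, a fit with DESeq2 1.42.0, and a test against a fold change of 1.5.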

Additional observations from a re-analysis of the deposited data

How the results depend on the processing

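Every member kept its direction under every alternative that gave a value. The call changed for 3 members. That of Loxl2 was lost without control replicate 3 (log2 fold change −0.95), without KD replicate 1 (−0.75) and in the test against a fold change of 1.5 (adjusted p = 0.141, edgeR's glmTreat), and Plod1 and Loxl3 were called in that last test alone. Lox gave no value where 10 counts were required in every library. Members called lower numbered 4 to 5 over all alternatives, and 4 to 5 when each replicate was left out. Members called higher numbered 2, except 1 where 10 counts were required in every library, a filter that removes Lox, and 4 in the test against a fold change of 1.5. Members higher at an adjusted p under 0.05 numbered 5, or 4 with upper quartile scaling, where Plod3 was not past it, and with the strict filter. No scaling moved the median of all genes by more than 0.041 on the log2 scale.

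Of the other pathway genes, 17 were called lower under every alternative. Those called higher went from 4 to 8 without a low-count filter and to 3 where 10 counts were required in every library. They ranged from 4 to 8 with each replicate left out. Without the filter more genes with few counts were tested. With a replicate left out, 13887 to 13919 genes passed the filter in place of 13497, and the cause of the range was not tested. The difference between the groups (KD minus control) in the log2 ratio of P4ha2 to P4ha3 was −0.041. It reversed to 0.065 without control replicate 1 and to 0.10 without KD replicate 2. Leaving out each replicate gave −0.19 to 0.10. The differences in the other ratios and in the class sums kept their direction.

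The replicate numbers did not pair the libraries: deviations from the group means of same-numbered libraries correlated at 0.014, −0.019 and −0.020, and not every library correlated best with its own number. With the replicate number as a block, members called lower numbered 5 and higher 2, as without it, and the paired exact test of 3 differences can give no p under 0.25. Depth limits P4ha3, Lox and Loxl2.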
